A study of Mus musculus with 12 samples.

Results

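A set of 35 genes that mark endothelial cells, the cells that line blood vessels, was followed in mouse liver, out of 55487 genes measured. They were 13 genes typical of the liver sinusoid (Stab1, Stab2, Lyve1, Mrc1, Clec4g, Fcgr2b, Dnase1l3, Oit3, Gpr182, Ehd3, Flt4, Gata4 and Maf) and 22 genes of endothelium in general (Kdr, Flt1, Nrp1, Tek, Tie1, Ptprb, Cdh5, Pecam1, Esam, Icam2, Cldn5, Emcn, Eng, Egfl7, Mmrn2, Robo4, Ramp2, Calcrl, Plvap, Aqp1, Sox18 and Erg). The set was drawn up by name from known endothelial markers, but it was chosen by a result of these same data, namely that endothelial markers were lower in livers given triptolide with crocin than in livers given triptolide alone. The values of that contrast are therefore given below as a description only, and the number of genes past the threshold in it follows from the choice.

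Liver sinusoidal endothelial cells form a thin, fenestrated wall between blood and hepatocytes. They clear waste from the blood through scavenger receptors such as the stabilins, the mannose receptor and an Fc receptor, and they share with other endothelium the receptors for vascular endothelial growth factor (VEGF) and the angiopoietin receptors that keep vessels stable. General endothelial genes are also read from the portal and central veins and from arteries, so that the 2 sets of genes report on overlapping but not identical cells.

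The livers came from male Kunming mice, an outbred stock, aged 7 to 8 weeks when bought and free of arthritis. The Control group received saline, the MTP group triptolide at 300 μg/kg, and the MTP + CR group triptolide at 300 μg/kg together with crocin at 100 mg/kg, all by gavage for 7 days. Triptolide is a diterpenoid of the vine Tripterygium that blocks transcription and injures the liver, and crocin is a carotenoid of saffron. Each group held 4 mice, with 1 liver and 1 RNA-seq library per mouse, and none of the 12 mice received crocin alone. The comparison asked whether crocin alters the response of the liver to triptolide. Whole liver was sequenced, and in such bulk samples fewer cells of a type and less RNA per cell cannot be told apart.

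Libraries held 15509226 to 18430566 counts, and 19104 to 24070 genes had at least 1 count. Counts were scaled with the trimmed mean of M values (TMM), which corrects for a shift in the makeup of a library, and are given as CPM, that is, relative to a fixed library total. These factors ran from 0.836 to 0.952 for Control livers, from 1.07 to 1.52 for MTP livers and from 0.823 to 0.989 for MTP + CR livers, and results that change without them are marked. Expression between libraries correlated least for MTP 1 and MTP + CR 4 (Pearson r of 0.815 over genes on the log2 CPM scale) and most for Control 1 and Control 3 (0.972). A gene was called changed where edgeR's quasi-likelihood test gave an adjusted p below 0.05 with a difference of more than 1.5-fold, over the 15197 genes that passed the filter on low counts, and all 35 endothelial genes passed that filter.

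The endothelial genes were low in the MTP + CR livers and near the Control level in the MTP livers. Together they took 0.132% to 0.162% of the counts of a Control library, 0.178% to 0.228% of an MTP library and 0.0511% to 0.0712% of an MTP + CR library. On the TMM scale their summed level was 1650 ± 78.2 CPM in Control livers (mean ± SD, n = 4), 1579 ± 178 CPM in MTP livers and 713 ± 105 CPM in MTP + CR livers. All MTP + CR livers thus lay below every liver of the other groups, whereas the share of counts in the MTP livers was above that of the Control livers only before TMM scaling. The MTP + CR group had the lowest of the 3 group means in 31 of the 35 genes, against 36.9% of all genes tested. That count includes the contrast by which the genes were chosen, so it follows in part from the choice and is a description only.

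**Figure D1:**
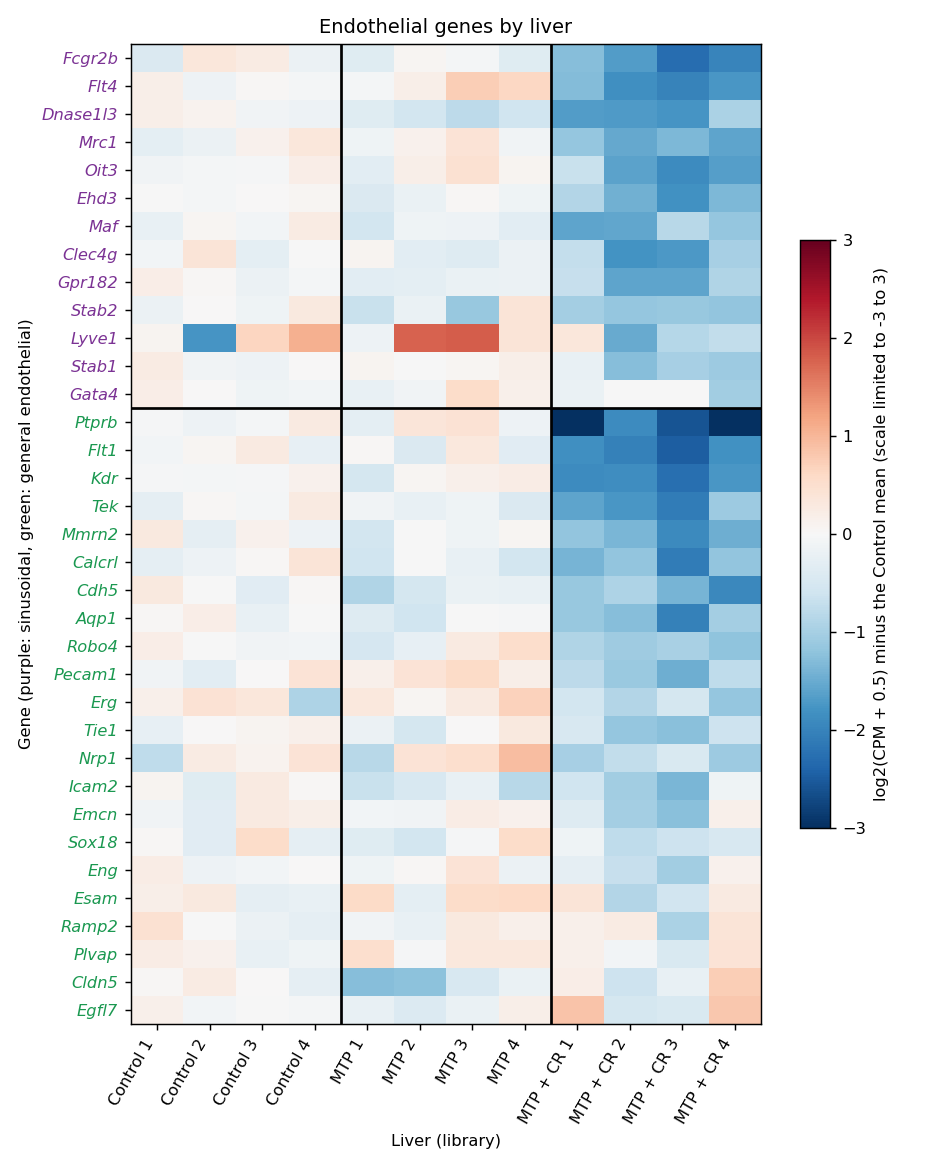
Heat map of log2(CPM + 0.5) minus the mean of the 4 Control livers for 35 endothelial genes (rows, the 13 sinusoidal genes above the 22 general ones) in 12 livers (columns). The 4 MTP + CR columns are blue (lower) for most genes, whereas Plvap, Ramp2, Cldn5 and Egfl7 at the bottom are near 0 or mixed.

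Promoters are shown for 4 of the genes because they share a sequence that forkhead and ETS transcription factors bind together in endothelial enhancers, and because some of them were called and others were not. Of the 35 genes, 20 had a promoter in the RefSeq table (build GRCm38.p6, 250 bases before to 50 after a start of transcription, 300 in all). The composite sequence AACAGGAA, searched on both strands, occurred in at least 1 promoter of 4 of these 20 genes (20%) and of 2.96% of the 27025 genes in the table. The ETS sequence CAGGAAG, which can overlap the composite, occurred in 8 of the 20 (40%), namely Calcrl, Egfl7, Ehd3, Emcn, Erg, Mrc1, Robo4 and Stab1, and in 14.8% of all genes. Capitals mark both sequences or their reverse complements below.
Calcrl, chr2:84425217-84425516, minus strand: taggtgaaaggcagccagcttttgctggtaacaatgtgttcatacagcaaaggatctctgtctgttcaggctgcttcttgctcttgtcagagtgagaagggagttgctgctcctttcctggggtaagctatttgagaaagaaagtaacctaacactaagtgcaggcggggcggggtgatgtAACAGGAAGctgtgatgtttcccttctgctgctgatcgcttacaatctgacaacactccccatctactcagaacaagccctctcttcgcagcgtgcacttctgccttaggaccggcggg
Mrc1, chr2:14229164-14229463, plus strand: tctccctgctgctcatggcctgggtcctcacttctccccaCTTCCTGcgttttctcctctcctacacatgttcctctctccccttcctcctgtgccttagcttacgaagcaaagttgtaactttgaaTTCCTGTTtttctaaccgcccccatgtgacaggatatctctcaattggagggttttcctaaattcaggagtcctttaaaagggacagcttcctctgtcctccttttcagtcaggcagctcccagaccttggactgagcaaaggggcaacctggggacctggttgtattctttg
Emcn, chr3:137340828-137341127, plus strand: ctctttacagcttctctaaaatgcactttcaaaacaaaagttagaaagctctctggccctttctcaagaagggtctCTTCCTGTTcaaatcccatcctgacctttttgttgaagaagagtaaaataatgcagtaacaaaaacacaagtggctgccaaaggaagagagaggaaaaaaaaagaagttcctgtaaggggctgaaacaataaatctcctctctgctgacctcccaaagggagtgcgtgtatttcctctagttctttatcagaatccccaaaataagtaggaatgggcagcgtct
Egfl7, chr2:26580833-26581132, plus strand, the first of 3 promoters: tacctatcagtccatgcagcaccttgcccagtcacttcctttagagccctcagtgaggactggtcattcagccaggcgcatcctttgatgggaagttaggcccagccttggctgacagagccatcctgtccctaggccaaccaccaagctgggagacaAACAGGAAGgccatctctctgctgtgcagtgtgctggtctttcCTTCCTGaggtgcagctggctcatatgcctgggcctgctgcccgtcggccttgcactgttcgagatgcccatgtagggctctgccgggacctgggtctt

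Calcrl and Mrc1 were called lower in the MTP + CR group than in the Control group, with log2 fold changes of −1.48 and −1.43. Emcn and Egfl7, which hold the same letters, were not called, at −0.61 and 0.32. A further 3 sequences were searched in the same way. The high-affinity ETS sequence CCGGAAG was in none of the 20 promoter sets (9.93% of all genes), the GATA sequence AGATAA in 2 (10%, against 12.7%) and the SOX sequence ACAATG in 3 (15%, against 14.3%). A match is a description of the letters only, and the absence of one says only that these letters were not in the window.

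The VEGF receptors were among the genes that differed most. Kdr (chromosome 5, 75932827 to 75978458 of mm10) encodes the main signaling receptor for VEGF-A. It was read at 85.7, 84.1, 85.5 and 96.9 CPM in Control livers 1 to 4, at 60.6, 90.9, 97.9 and 103 CPM in MTP livers, and at 23.6, 23.9, 18.0 and 25.9 CPM in MTP + CR livers. Every MTP + CR liver was below every liver of the other groups, while the MTP livers lay on both sides of the Control livers. Kdr fell against the Control group by 1.95 on the log2 scale (standard error 0.21, edgeR adjusted p = 0.00210), and the difference of the MTP group from the Control group was 0.00 (standard error 0.20).

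Flt1, which binds VEGF and acts largely as a decoy in endothelium, was lower still in relative terms. It was read at 16.9 to 24.6 CPM in the Control livers, 15 to 25.1 CPM in the MTP livers and 3.23 to 5.39 CPM in the MTP + CR livers. Its fall against the Control group was by 2.14 on the log2 scale (standard error 0.25, edgeR adjusted p = 0.00210). Flt4 (chromosome 11, 49609263 to 49652739 of mm10) encodes the receptor for VEGF-C and in liver is found in the sinusoid as well as in lymphatic vessels. It was read at 40 to 50.2 CPM in the Control livers, at 42.7, 49.7, 74.3 and 67.9 CPM in the MTP livers and at 17.8, 12.1, 10.6 and 12.9 CPM in the MTP + CR livers. The 2 highest MTP livers exceeded every Control liver, and no MTP + CR liver overlapped either group. Flt4 fell by 1.73 against the Control group (edgeR adjusted p = 0.00446). Nrp1, a co-receptor for VEGF that neurons and other cells also express, varied more among livers, from 45.1 to 102 CPM in the Control group and from 35.7 to 55.6 CPM in the MTP + CR group, and was not called between them (−0.87, edgeR adjusted p = 0.166).

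**Figure D2:**
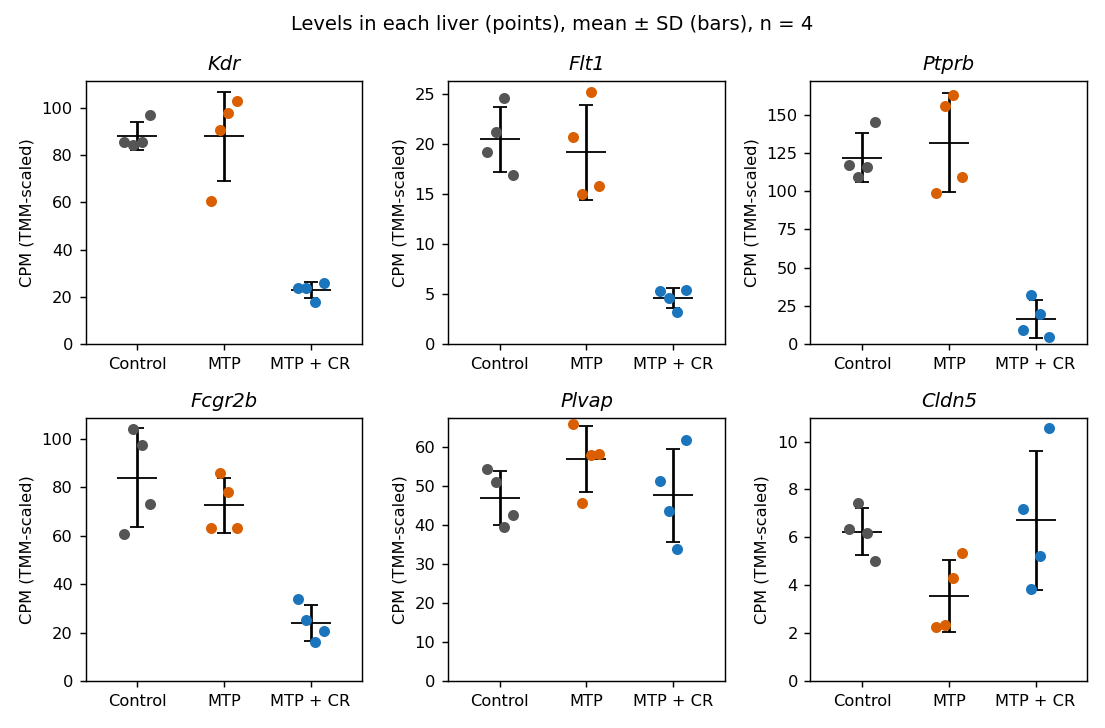
Levels of 6 endothelial genes in CPM scaled with TMM factors (vertical axes start at 0), with 1 point per liver and bars for the mean ± SD of 4 livers in the Control, MTP and MTP + CR groups. Kdr, Flt1, Ptprb and Fcgr2b were lower in all 4 MTP + CR livers than in any other liver, whereas the groups overlapped for Plvap and Cldn5.

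In the angiopoietin system, Ptprb had the largest difference of the 35 genes. Ptprb (chromosome 10, 116275523 to 116389535 of mm10) encodes VE-PTP, a phosphatase that dephosphorylates the angiopoietin receptor and keeps junctions closed. It was read at 117, 109, 116 and 145 CPM in the Control livers and at 99.0, 156, 163 and 109 CPM in the MTP livers. In the MTP + CR livers it was read at 9.24, 32.4, 19.6 and 4.67 CPM, which is below every other liver but spread over a wider relative range than any other gene here within that group (coefficient of variation 74.7%). Ptprb fell by 2.89 on the log2 scale against the Control group, 7.39-fold (standard error 0.47, edgeR adjusted p = 0.0105), and its value stayed between −3.44 and −2.58 whichever library was left out.

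Tek, the angiopoietin receptor TIE2, was read at 21.1 to 30.7 CPM in the Control livers, 18.7 to 23.5 CPM in the MTP livers and 5.56 to 11.7 CPM in the MTP + CR livers. Tek fell by 1.64 against the Control group (standard error 0.24, edgeR adjusted p = 0.00630). Tie1, its partner receptor without a ligand of its own, moved less. Tie1 had 17.3 to 23.2 CPM in the Control livers and 8.47 to 14.6 CPM in the MTP + CR livers, groups that did not overlap, but was called with DESeq2 alone (−0.88, edgeR adjusted p = 0.0812).

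The genes of cell junctions and of the endothelial surface split into those that fell and those that did not. Cdh5, which encodes VE-cadherin, the adhesion molecule of endothelial junctions, fell from 52.6 ± 9.47 CPM in Control livers to 20.8 ± 5.96 CPM in MTP + CR livers (−1.34 on the log2 scale, edgeR adjusted p = 0.0243). It stood at 38.1 ± 8.10 CPM in MTP livers, a log2 difference of −0.46 from the Control group that was not called. Pecam1, the adhesion molecule CD31, was read at 26.9 to 44.3 CPM in the Control livers, 37.0 to 49.7 CPM in the MTP livers and 11.8 to 19.4 CPM in the MTP + CR livers (−1.05 against the Control group, edgeR adjusted p = 0.0403). The call of Pecam1 was lost under 16 of 22 alternative settings and that of Cdh5 under 7.

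The smaller surface proteins were not called in the main analysis of any comparison. Cldn5, a tight junction claudin, had its lowest values after triptolide alone, at 2.26, 2.34, 4.28 and 5.33 CPM, against 5 to 7.42 CPM in the Control livers and 3.85 to 10.6 CPM in the MTP + CR livers. That difference was not called either (−0.81, edgeR adjusted p = 0.201). Esam, an adhesion molecule of tight junctions, had 10.5 ± 2.19 CPM in Control, 13.9 ± 3.72 CPM in MTP and 9.59 ± 4.09 CPM in MTP + CR livers. Icam2, a ligand of leukocyte integrins, had 4.37 ± 0.852, 2.83 ± 0.599 and 2.44 ± 1.11 CPM in the same order. For Emcn, a sialomucin of capillaries and veins, the values were 4.58 ± 0.935, 4.70 ± 0.573 and 3.00 ± 1.59 CPM. All 4 genes were read at low levels, and the lowest count of any library was 42 for Cldn5, 83 for Esam, 21 for Icam2 and 25 for Emcn.

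Eng, the co-receptor endoglin for the TGF-β family, overlapped between all groups, with 69.4 to 89.9 CPM in the Control livers and 37.1 to 84.6 CPM in the MTP + CR livers (−0.41, edgeR adjusted p = 0.354). Mmrn2, a matrix protein of endothelium, fell from 20.5 ± 3.65 to 7.05 ± 1.49 CPM (−1.54, edgeR adjusted p = 0.00774). Robo4, a receptor that steadies vessels, was lower in every MTP + CR liver (3.24 to 4.12 CPM) than in any Control liver (7.53 to 9.36 CPM) but was not called (−1.14, edgeR adjusted p = 0.0555), though it was with DESeq2 and without MTP 1 or MTP 4. Egfl7, a secreted endothelial factor, went the other way in part of the group. Its MTP + CR livers had 25.3, 9.33, 9.89 and 24.5 CPM, livers 1 and 4 above and livers 2 and 3 below all Control livers (13 to 15.4 CPM), with a log2 difference of 0.32 that was not called (edgeR adjusted p = 0.568).

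Calcrl and Ramp2 encode the receptor and the accessory protein that together bind adrenomedullin, and they did not move together. Calcrl (chromosome 2, 84330626 to 84425411 of mm10) was read at 26.1 to 41.6 CPM in the Control livers, 20.6 to 31.5 CPM in the MTP livers and 6.98 to 13.7 CPM in the MTP + CR livers, and it fell by 1.48 against the Control group (standard error 0.26, edgeR adjusted p = 0.0156). Ramp2 had group means of 8.30 ± 2.15, 8.37 ± 1.47 and 8.39 ± 3.04 CPM, and its log2 difference between the MTP + CR and Control groups was 0.01 (standard error 0.31). The difference between these 2 genes was not tested. Their transcripts have 4882 bases (Calcrl) and 1178 bases (Ramp2). Over all genes the median of this comparison was −0.30 from 4000 to 6000 bases and 0.37 below 2000. With the transcript length trend removed, Calcrl stood at −1.12 and was not called.

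Plvap and Aqp1, a diaphragm protein of fenestrated vessels and a water channel, were the 2 most abundant members by FPKM. In FPKM, fragments relative to gene length and library total, Aqp1 stood at 47.2 ± 7.33 and Plvap at 21.4 ± 4.10 in the Control group. Aqp1, which cholangiocytes also express, fell from 137 ± 16.5 to 54.3 ± 14.8 CPM (−1.33, edgeR adjusted p = 0.0203). Plvap (chromosome 8, 71497765 to 71511752 of mm10) was read at 54.2, 51.1, 39.5 and 42.6 CPM in the Control livers, at 65.9, 45.6, 57.9 and 58.2 CPM in the MTP livers, and at 51.4, 43.5, 33.8 and 61.8 CPM in the MTP + CR livers. Its groups overlapped throughout, and the log2 difference between the MTP + CR and Control groups was 0.02 (standard error 0.22). By FPKM, Plvap was thereby the highest of the 35 genes in the MTP + CR group (21.1 ± 4.59), ahead of Aqp1 (18.3 ± 4.91) by less than the spread of either.

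The level order below these 2 genes also shifted. In the Control group they were followed by Dnase1l3 at 19.8 ± 2.89 FPKM and Clec4g at 19.1 ± 4.27 FPKM, which, like Plvap, did not differ beyond their spread, and then by Mrc1 at 12.4 ± 2.41 FPKM. The lowest were Emcn at 0.631 ± 0.111 FPKM and Erg at 0.589 ± 0.216 FPKM. Ptprb stood at place 14 in Control, place 10 in MTP and place 29 in MTP + CR livers. Cldn5 moved from place 19 to places 28 and 9. FPKM carry no TMM factor, so that places within a library can be read but levels between groups cannot be set side by side with the CPM above. The places also depend on the gene length behind the FPKM. That length was 3845 bases for Clec4g and 6531 for Emcn, whereas the transcripts used below have 1242 and 1357 bases. An order by transcript length was not made.

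Of the sinusoidal genes, 9 of 13 fell in the MTP + CR group against the Control group, where 1.00% of all genes tested were called lower. Fcgr2b (chromosome 1, 170958617 to 170976547 of mm10), an inhibitory Fc receptor with which sinusoidal cells take up immune complexes, was read at 60.8, 104, 97.8 and 73.0 CPM in the Control livers, 63.2, 85.9, 78.2 and 63.2 CPM in the MTP livers and 33.8, 25.1, 16.3 and 20.6 CPM in the MTP + CR livers. It had the largest fall of the 13, by 1.81 on the log2 scale (standard error 0.26, edgeR adjusted p = 0.00630). Mrc1, the mannose receptor, which macrophages also express, was at 82.2 to 128 CPM in the Control livers, 91.7 to 134 CPM in the MTP livers and 33.4 to 44.8 CPM in the MTP + CR livers (−1.43, edgeR adjusted p = 0.00774). Ehd3, an ATPase of endocytic recycling, was one of the steadiest genes in the Control group (93.7 ± 3.5 CPM) and fell to 37.0 ± 10.4 CPM (−1.34, edgeR adjusted p = 0.0105). The calls of Fcgr2b, Mrc1 and Ehd3 held under all 22 alternative settings.

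Dnase1l3, a secreted nuclease that degrades DNA in the blood, was graded over the groups. It was read at 128, 122, 106 and 102 CPM in the Control livers, at 88.0, 77.4, 65.7 and 75 CPM in the MTP livers and at 35.4, 35, 32.9 and 58.6 CPM in the MTP + CR livers, with no overlap between any of the groups. The step from Control to MTP was not called (−0.58, edgeR adjusted p = 0.130), and that from Control to MTP + CR was (−1.50, adjusted p = 0.00728). Oit3, a zona pellucida domain protein of the sinusoid, fell from 31.9 ± 3.09 to 12 ± 5.32 CPM (−1.41, edgeR adjusted p = 0.0290), with liver 1 at 19.9 CPM above the other MTP + CR livers. Its call was lost under 8 of 22 alternative settings.

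Clec4g, a C-type lectin of the sinusoid, fell from 80.8 ± 16.5 to 33.8 ± 12.6 CPM (−1.26, edgeR adjusted p = 0.0376), Gpr182, an atypical chemokine receptor, from 38.3 ± 4.08 to 17.1 ± 5.57 CPM (−1.16, adjusted p = 0.0290), and Maf, a transcription factor of sinusoidal cells and macrophages, from 68.7 ± 9.45 to 28.4 ± 7.43 CPM (−1.27, adjusted p = 0.0148). The call of Clec4g was lost under 12 of 22 alternative settings and that of Gpr182 under 8. The stabilins, scavenger receptors for modified proteins and hyaluronan, were lower without passing the test. Stab1 had 41.0 to 53.6 CPM in the Control livers and 18.5 to 38.7 CPM in the MTP + CR livers (−0.85, edgeR adjusted p = 0.0776). Stab2 had 79.2 to 110 CPM and 39.0 to 44.3 CPM (−1.15, edgeR adjusted p = 0.0613). Neither gene overlapped between those groups, and with DESeq2 both were called.

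Lyve1 and Gata4 were not called in the main analysis of any comparison. Lyve1, a hyaluronan receptor shared with lymphatic vessels and some macrophages, varied widely within every group, at 11.2, 2.74, 16.8 and 22.8 CPM in the Control livers, 9.48, 37.3, 38.5 and 14.1 CPM in the MTP livers and 13.6, 3.39, 5.63 and 6.18 CPM in the MTP + CR livers. Its log2 differences had a standard error of 0.60 to 0.61. Against the MTP livers its value was −1.79, which was short of the threshold but met it under 5 of 22 alternative settings, DESeq2, total counts and log2(FPKM + 1) among them. Gata4, a transcription factor that specifies sinusoidal endothelium in the mouse and is also made by stellate cells, had 17.3 ± 1.72 CPM in the Control group and 14.3 ± 4.21 CPM in the MTP + CR group (−0.28, edgeR adjusted p = 0.541). The general endothelial factors were not called between the MTP + CR and Control groups, although Erg met the threshold against the MTP group. Sox18, a SOX factor of developing vessels, had 5.54 ± 1.81 and 3.68 ± 0.822 CPM (−0.59, adjusted p = 0.307), and Erg, an ETS factor, 5.96 ± 2.24 and 3.10 ± 0.717 CPM (−0.94, adjusted p = 0.133).

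Counted over the set, MTP + CR against Control gave 18 genes lower, 0 higher and 17 not called, whereas 1.00% of all genes tested were called lower and 0.329% higher. In 22 of the 35 genes every MTP + CR liver was below every Control liver, and in 0 every one was above, against 8.15% and 7.37% of all genes. The median log2 fold change was −1.15 over the 35 genes and −0.02 over all genes, and the range ran from −2.89 for Ptprb to 0.32 for Egfl7. Under other settings the number lower was 10 (without Control 4), 12 with the mouse number as a block and 22 with DESeq2, where 0.339%, 0.349% and 3.92% of all genes were called lower. This comparison shares its MTP + CR livers with the contrast by which the genes were chosen, so it is not independent of the choice.

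MTP against Control, which shares its MTP livers with the contrast by which the genes were chosen, gave no called gene. With edgeR 0 of 35 genes were called, against 2.78% of all genes lower and 2.61% higher. An unadjusted p under 0.05 was found for 2 of the 35 and for 22.8% of all genes, and DESeq2 called 0 of the 35. Only Dnase1l3 and Gpr182 were lower in every MTP liver than in any Control liver and none was higher, against 7.71% and 6.96% of all genes. The median log2 fold change was −0.08, beside 0.02 for all genes, with a range from −0.81 for Cldn5 to 0.89 for Lyve1. Scaling by total counts turned the median positive, to 0.42 beside 0.50 for all genes, and with it Flt4 (0.86) and Pecam1 (0.80) were called higher, as they were on log2(FPKM + 1). Of all genes 17.2% and 11.9% were called higher under these settings, and relative to all genes the median of the 35 was −0.11 with TMM and −0.08 with total counts.

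MTP + CR against MTP is the contrast in which the endothelial genes had been noticed, and its values are a description. In that contrast 23 genes met the threshold as lower, 0 as higher and 12 met neither, where 6.51% and 5.94% of all genes did. Every MTP + CR liver was below every MTP liver in 21 genes and above in 0, beside 7.99% and 6.92% of all genes. The median log2 fold change was −1.04 (all genes −0.03), and among the genes past the threshold the values were largest for Ptprb (−3.0), Flt4 (−2.14), Flt1 (−2.05), Kdr (−1.95), Fcgr2b (−1.60), Oit3 (−1.53), Mrc1 (−1.50), Tek (−1.41), Mmrn2 (−1.37) and Pecam1 (−1.37). Erg (−1.22), Robo4 (−1.20), Nrp1 (−1.19), Ehd3 (−1.17), Calcrl (−1.12), Aqp1 (−1.09), Clec4g (−1.04), Maf (−0.99), Dnase1l3 (−0.92), Stab1 (−0.92), Gpr182 (−0.91), Cdh5 (−0.87) and Tie1 (−0.80) followed. Lyve1 (−1.79) and Stab2 (−0.83) lay within this range without meeting the threshold, and the other 10 ran from −0.65 for Emcn to 0.92 for Cldn5. The number was 11 when the Control libraries were left out of the fit, 11 without MTP 3 and 15 without MTP + CR 3. Of all genes 1.33%, 1.13% and 2.75% met it as lower in those fits. Under total counts 31 genes met the threshold, as did 27.2% of all genes, and the median was −1.59, beside −0.54 for all genes.

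**Figure D3:**
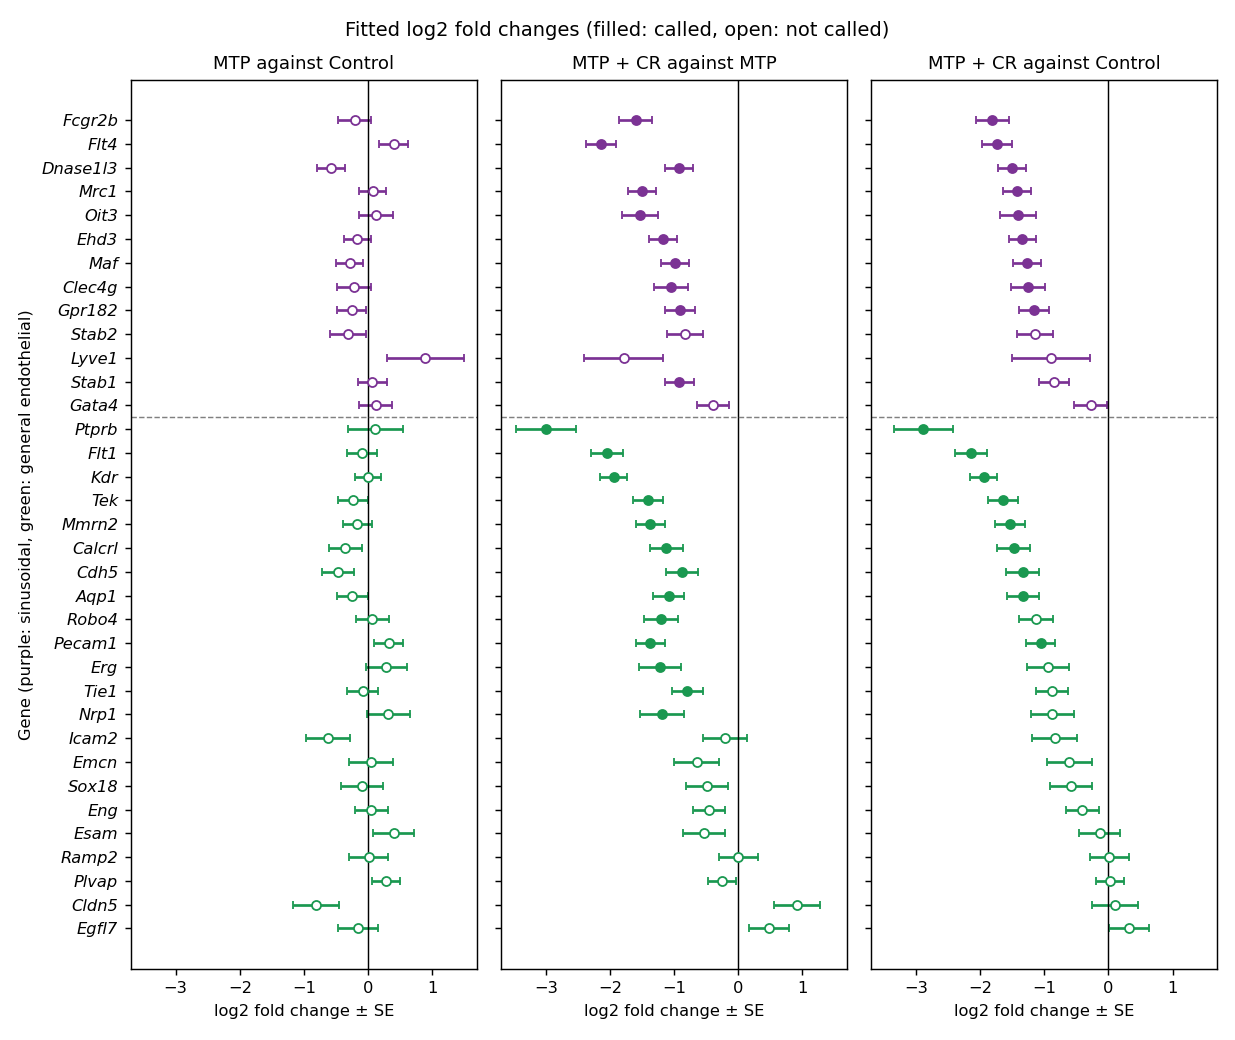
Fitted log2 fold changes (horizontal axis) with standard errors of the 35 endothelial genes (vertical axis, sinusoidal genes above the dashed line) in 3 comparisons, with filled points for genes past the threshold (adjusted p under 0.05 and fold above 1.5) and open points for the rest. No point is filled for MTP against Control, 23 are filled for MTP + CR against MTP and 18 for MTP + CR against Control, all of them at negative values.

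Sinusoidal and general genes were then set side by side. Against the Control group the MTP + CR group had a median of −1.27 over the 13 sinusoidal genes (9 lower) and of −0.91 over the 22 general genes (9 lower), a difference of −0.36. Against the MTP group the medians were −1.04 and −0.98, a difference of −0.06 that turned to 0.17 without MTP + CR 2. For MTP against Control they were −0.17 and −0.04. Taken liver by liver, the median of the sinusoidal genes minus that of the general genes, each relative to the Control mean, was −0.03 ± 0.05 for Control (SD, n = 4), −0.08 ± 0.15 for MTP and −0.32 ± 0.14 for MTP + CR. The 4 MTP + CR livers had −0.18, −0.51, −0.33 and −0.27, all below the Control livers (−0.08 to 0.02) but overlapping the MTP livers (−0.25 to 0.11). Each gene was set relative to the mean of these same Control livers, so their range is not independent of that scale. The separation from it is a description only. The general genes also spread more widely, with quartiles of −1.44 and −0.45 against −1.43 and −1.15 for the sinusoidal genes.

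**Figure D4:**
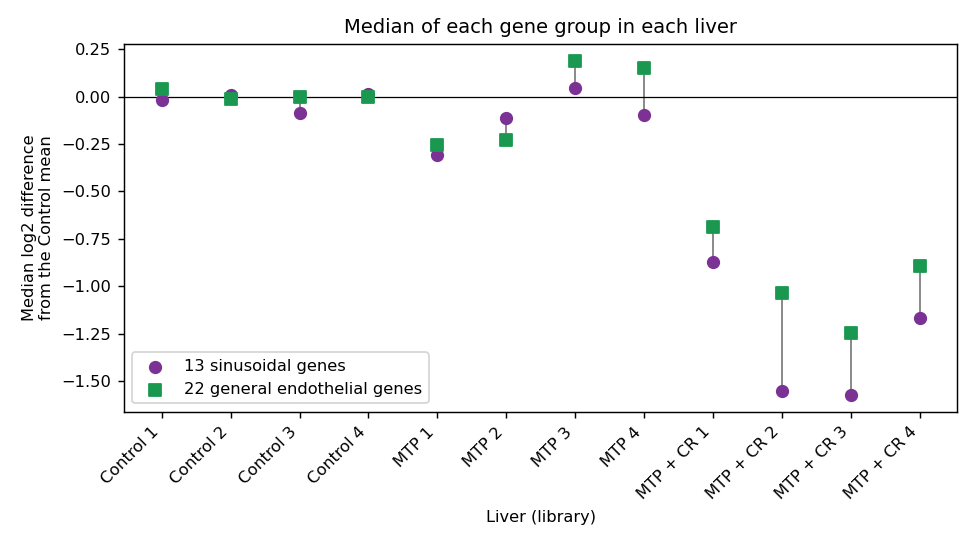
Median log2 difference from the Control mean (vertical axis) over the 13 sinusoidal genes (circles) and the 22 general endothelial genes (squares) in each of the 12 livers, joined by a line per liver. In MTP + CR livers the medians lie between −1.57 and −0.69, with the sinusoidal median below the general one in all 4.

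Transcript length moved with these differences. Among all genes with a transcript in the annotation (15172), the log2 fold change of MTP + CR against Control had a rank correlation of −0.46 with transcript length, whereas that of MTP against Control had one of 0.02 (Spearman's rho over genes, which share the libraries and are not replicates). Over the 35 endothelial genes the rho for MTP + CR against Control was −0.67. It was −0.83 over the 22 general genes and 0.01 over the 13 sinusoidal genes. The general genes include 8 of the 9 members under 2000 bases (Cldn5, Egfl7, Emcn, Esam, Icam2, Plvap, Ramp2 and Sox18), none of which was called, and the ninth, the sinusoidal Clec4g with 1242 bases, was called. Ptprb has the longest transcript of the set, 11911 bases.

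Genes of like length gave a nearer background. Below 2000 bases the members had a median of −0.14 and all genes one of 0.37. Between 3000 and 4000 bases 11 members had a median of −1.14 beside −0.12, and above 6000 bases 6 members had one of −1.50 beside −0.48 for all genes. From 2000 to 3000 bases 3 members had a median of −1.33 beside 0.05, and from 4000 to 6000 bases 6 members had one of −1.49 beside −0.30. In each class the median of the members was below that of all genes. The members were chosen by a contrast that shares these MTP + CR livers, so this follows in part from the choice and is a description only. When each library's trend over transcript length was removed, an alternative chosen after the data were seen, the median of the 35 genes was −1.01 and all 35 had a negative log2 fold change. The number called lower was then 11 in place of 18, of 58 among all genes, and the difference between sinusoidal and general genes shrank from −0.36 to −0.06. Flt4, Dnase1l3, Tek, Calcrl, Maf, Gpr182 and Pecam1 lost the call, while Kdr, Flt1, Ptprb, Fcgr2b, Mrc1, Oit3, Ehd3, Mmrn2, Cdh5, Aqp1 and Clec4g had it. In MTP + CR against MTP the number was 15 in place of 23.

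**Figure D5:**
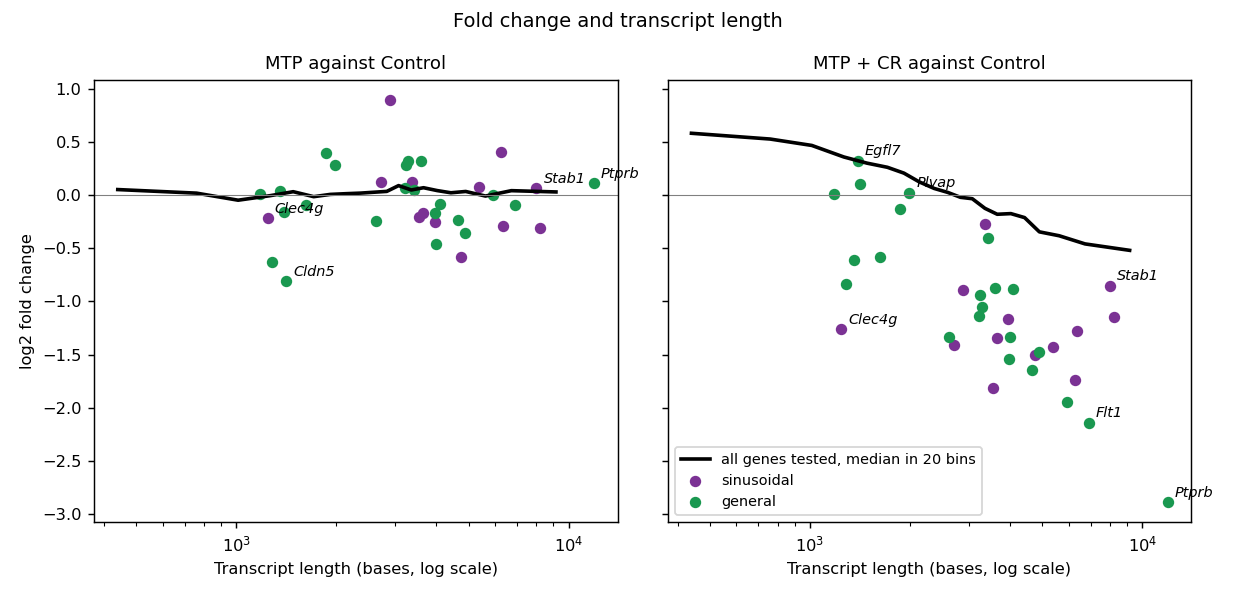
Log2 fold change against transcript length in bases (log scale) of the 13 sinusoidal (purple) and 22 general (green) genes in MTP against Control (left) and MTP + CR against Control (right), with the median of all genes tested in 20 bins of length as a line. On the right the line falls with length and most endothelial genes lie below it, while on the left the line is flat near 0.

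Other genes of endothelium, which are not among the 35, were counted for context in lists drawn up with the same results known. Of 28 further endothelial markers 6 were lower in the MTP + CR group than in the Control group, 0 higher and 22 not called, with a median of −0.77. Of all genes edgeR called 1.00% lower and 0.329% higher in that comparison, to which the edgeR counts of further lists below also belong unless MTP against Control is named. DESeq2 called 11 of the 28. In MTP against Control edgeR called 0 of the 28 (5 at an unadjusted p under 0.05, 1 with DESeq2). Of all genes 22.8% had an unadjusted p under 0.05 in that comparison, and edgeR called 2.78% lower and 2.61% higher. DESeq2 called 6.01% lower and 5.59% higher. F8, coagulation factor VIII, which liver endothelium makes, went from 45.1 ± 9.69 to 6.98 ± 1.68 CPM (−2.69, edgeR adjusted p = 0.00113). Adgrl4, an adhesion receptor of endothelium (−2.15), Adam23 (−2.03) and Tspan7 (−1.48) followed. Of 18 tested endothelial transcription factors 1 was lower, the ETS factor Elk3 (−1.35, edgeR adjusted p = 0.0156), and their median was −0.85. An unadjusted p under 0.05 was found for 9 of them, and DESeq2 called 5. Among all genes tested, 21.96% had an unadjusted p under 0.05 in MTP + CR against Control. DESeq2 called 3.92% of all genes lower and 3.7% higher in that comparison. Of 10 tested Notch components edgeR called 0 in MTP + CR against Control (3 at an unadjusted p under 0.05, 0 with DESeq2), the nearest to the threshold being Notch3 (−0.94) and Notch2 (−0.62).

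Of 7 tested VEGF and angiopoietin ligands and adrenomedullins, 1 was lower and 1 higher in MTP against Control, and 5 were not called. Of all genes 2.78% were lower and 2.61% higher in that comparison. Vegfb, a ligand of Flt1, fell from 10.1 ± 1.85 CPM in the Control group to 2.38 ± 1.31 CPM in the MTP group (−2.09 on the log2 scale, edgeR adjusted p = 0.0163). It stood at 7.75 ± 4.14 CPM in the MTP + CR group. Adm, adrenomedullin, the ligand of Calcrl with Ramp2, rose from 1.43 ± 0.424 CPM in the Control group to 3.48 ± 0.847 CPM in the MTP group (1.28, edgeR adjusted p = 0.0430). It stood at 1.64 ± 0.352 CPM in the MTP + CR group. Adm in all groups and Vegfb in the MTP group were read at low levels, which carry more counting error. Between the MTP + CR and Control groups edgeR called 0 of the 7 (0 at an unadjusted p under 0.05, 0 with DESeq2), the nearest being Angpt1 (−0.43) and Vegfb (−0.39).

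Markers of other liver cells were set beside these values for context, and their part in the endothelial values was not tested. The summed level of 16 stellate cell and fibroblast markers was 597 to 733 CPM in the Control livers, 617 to 761 CPM in the MTP livers and 359 to 606 CPM in the MTP + CR livers. In this sum every MTP + CR liver was below every MTP liver, as for the endothelial genes, but not below every Control liver. Of these 16 markers, 1 was lower in MTP + CR against Control, Colec10 (−1.72, edgeR adjusted p = 0.00798). The other 15 were not called (7 of the 16 at an unadjusted p under 0.05, 3 with DESeq2). Of all genes edgeR called 1.00% lower and 0.329% higher in that comparison. The 16 Kupffer cell markers summed to 1546 to 1835, 834 to 1307 and 862 to 1515 CPM, with 1 lower, Adgre1 (−1.61, edgeR adjusted p = 0.0108), 4 at an unadjusted p under 0.05 and 2 with DESeq2. Among all genes tested, 21.96% had an unadjusted p under 0.05 in MTP + CR against Control. DESeq2 called 3.92% of all genes lower and 3.7% higher in that comparison. Hepatocyte markers, of which 19 were tested, summed to 146567 to 200512 CPM in the Control livers, 46406 to 87879 CPM in the MTP livers and 106463 to 151985 CPM in the MTP + CR livers, and edgeR called 0 between the MTP + CR and Control groups (1 at an unadjusted p under 0.05, 0 with DESeq2). Markers of monocytes were highest in the MTP group, at 127 to 596 CPM against 67.9 to 181 CPM in the Control group and 51.4 to 101 CPM in the MTP + CR group. In MTP + CR against Control their median was −1.11, and edgeR called 0 of 9. In MTP + CR against MTP edgeR called 4 stellate cell and fibroblast markers and 7 monocyte markers lower and 0 of either higher. It called 0 Kupffer cell markers, and 7 hepatocyte markers higher and 0 lower. Of all genes 6.51% were lower and 5.94% higher there.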

How the data were processed

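The authors mapped the reads to the mouse genome with Hisat2 2.0.5 and deposited, for each gene and library, a whole-number count and an FPKM value (the count relative to gene length and library total, without a TMM factor). The submitters' processing notes name Bowtie 0.12.2 and mm10, and the annotation release is not given in the sources used here. Gene coordinates and transcript lengths came from GENCODE vM21.

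The counts were filtered with edgeR 4.0.16 under R 4.3.3 (filterByExpr, at least 10 per library and 15 in total) and normalised by TMM. A single quasi-likelihood model of all 12 libraries gave the comparisons, and p-values were adjusted over 15197 genes by Benjamini-Hochberg. CPM carry the TMM factor. The members and gene lists were chosen with earlier results of these data known. All 35 members are named, and of other lists the 4 called genes ranked first by adjusted p (2 for lists with no call). Mice of a group are separate animals. Run on simulated counts with known changes, the procedure missed part of the changed genes, so a gene not called may still differ. DESeq2 1.42.0, limma 3.58.1 on log2(FPKM + 1), other scalings and filters, the replicate block, length trends (lowess span 0.3) and each library left out served as alternatives. Libraries held at least 15509226 counts, and members with few counts, down to 21 in a library, carry more counting error.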

Additional observations from a re-analysis of the deposited data

Results flagged for a closer look

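For each of the 35 genes in each of the 3 groups of 4 livers, the highest and lowest liver was compared with the others by Dixon's ratio at its 95% critical value. Chance flags about 1 in 20 groups, and 4 of 105 were flagged here. Dnase1l3 was at 58.6 CPM in MTP + CR 4, against 32.9 to 35.4 CPM in the other 3 livers of its group. Oit3 was at 19.9 CPM in MTP + CR 1, against 8.28 to 10.2 CPM. Kdr was at 96.9 CPM in Control 4, against 84.1 to 85.7 CPM, and Esam was at 8.30 CPM in MTP 2, against 15.5 to 15.9 CPM.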

How the results depend on the processing

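The median fall of the endothelial genes in MTP + CR against Control had the same sign under all 22 alternatives run, from −1.19 to −1.10 with each library left out and −0.825 on log2(FPKM + 1), while the number of genes called lower moved from 10 to 20 with libraries left out (18 in the main analysis) and was 11 with the transcript length trend removed. Of all genes 0.339% to 1.34% were called lower in MTP + CR against Control with libraries left out, and 0.382% without the transcript length trend. The sinusoidal minus general difference of that comparison ran from −0.48 to −0.24 with libraries left out, and was −0.69 on log2(FPKM + 1) and −0.059 without the transcript length trend. In MTP + CR against MTP, 11 to 23 genes met the threshold with libraries left out, 11 with only the compared groups in the fit and 15 without the transcript length trend. Of all genes 1.13% to 11.7% were called lower with libraries left out, 1.33% with only the compared groups and 3.88% without the transcript length trend. The 23, found without MTP 4, were 22 lower and 1 higher, Cldn5 (1.19). In that fit 11.7% of all genes were called lower and 14.1% higher. The median of MTP + CR against MTP was −1.59 under total counts, and the sinusoidal minus general difference ran from −0.23 to 0.17 with libraries left out and was −0.56 on log2(FPKM + 1). In MTP against Control, 0 or 1 genes were called with libraries left out (Dnase1l3, −0.59, without MTP + CR 4, where 3.5% of all genes were called lower). Under total counts and on log2(FPKM + 1) 2 were called higher, as were 17.2% and 11.9% of all genes. The median was 0.42 and 0.27 under these settings, and the difference between gene groups was 0.011 on log2(FPKM + 1) and −0.19 to 0.0027 with libraries left out. The cause of these shifts was not tested.

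Mice carry the numbers 1 to 4 in each group, but livers with the same number did not deviate together (r of −0.187 to 0.203, against −0.201 to 0.166 for different numbers), so the numbers were not taken as pairs. With the number as a replicate block, 0, 21 and 12 genes were called in MTP against Control, MTP + CR against MTP and MTP + CR against Control, all of them lower. Of all genes 2.11%, 4.55% and 0.349% were called lower in the same order, and 1.43%, 4.85% and 0.0855% higher. Genes under 10 CPM, such as Icam2, Emcn, Sox18 and Erg, are limited by counts as low as 21 in a library.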
